A study of Rattus norvegicus with 12 samples.

Results

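The genes described here encode the proteins of focal adhesions and the LIM-domain and cross-linking proteins that tie them to actin. The members were 38 rat genes taken by symbol from a list, and all 38 were among the 33294 genes of the count table and among the 18438 genes tested. They were measured by poly(A) RNA-seq in PAC1 cells, a rat pulmonary artery smooth muscle line kept in its differentiated culture, in 4 groups of 3 libraries. Every group was reverse-transfected with 90 pmol of siRNA and transfected again, with the non-targeting siRNA C2 for control, or with 1 siRNA against RBPMS, RBFOX2 or QKI, whose gene symbol is Qk. The labels give 24 h to the second transfection and harvest 48 h after it, a shorter schedule than the one in the study's own methods. Each knockdown rests on 1 siRNA sequence in 1 cell line. The study reports that the differentiated cells of its experiment with these knockdowns were less differentiated than in its other experiment. The labels only number the replicates. The study's methods call repeats of its siRNA treatments biological replicates, without naming these libraries. The p-values therefore measure the spread between these libraries, pooled for each gene over all 4 groups.

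Focal adhesions form where integrins bind the extracellular matrix. Talin, vinculin and kindlin couple the integrin tails to actin, the kinases FAK and Src and their scaffolds signal from the site, and filamins, actinins and LIM-domain proteins cross-link the filaments and respond to tension. In smooth muscle these sites pass contractile force from the actin cytoskeleton to the matrix. RBPMS, RBFOX2 and QKI are RNA-binding proteins that regulate alternative splicing. The values here are counts per gene, which sum over isoforms. Splicing within the members was not analysed here.

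The siRNA sense strands are shown because they define the groups. They were read from the study's oligonucleotide list and are given 5′ to 3′ in lower case.
C2 (control): aagguccggcucccccaaaug
RBPMS: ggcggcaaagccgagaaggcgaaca
RBFOX2: gcaaugguucagccuuuua
QK: ggacuuacagcuaaacaac

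Libraries held 110595399 to 151665474 counts. The member genes took 1.51% to 1.59% of all counts in the control libraries, 1.26% to 1.39% in the RBPMS, 1.29% to 1.31% in the RBFOX2 and 1.17% to 1.19% in the QKI knockdown. Without Flna the shares were 1.09% to 1.14%, 0.957% to 1.03%, 1.03% to 1.04% and 0.842% to 0.855%, so the ranges of the 3 knockdowns lay below the control range in either case. Levels are given as CPM, the counts of a gene as parts of 1000000 of the TMM-adjusted library size, and they can be compared between groups but not between genes, because CPM is not divided by length. The targets fell in their own knockdowns: Rbpms from 40.7 ± 2.60 to 7.21 ± 0.301 CPM (mean ± SD, n = 3), Rbfox2 from 154 ± 4.37 to 37.3 ± 0.943 CPM, and Qk from 233 ± 7.04 to 26.6 ± 0.649 CPM. Rbpms was also lower in the RBFOX2 (log2 fold change -0.81 ± 0.06 SE) and QKI (-0.49 ± 0.06) knockdowns, and Qk in the RBFOX2 knockdown (-0.42 ± 0.04). Qk was higher in the RBPMS knockdown (0.18 ± 0.04), and Rbfox2 was lower in the QKI (-0.15 ± 0.04) and RBPMS (-0.12 ± 0.04) knockdowns, of which the RBPMS value was lost without the third control or the second RBPMS library. The second RBPMS knockdown library stood apart from the other two in several members, with Flna at 3817, 3216 and 3632 CPM over the 3 libraries.

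The 10 smooth muscle markers (Acta2, Tagln, Cnn1, Myh11 and others) summed to 2168 to 2236 CPM in control, 1106 to 1215 in RBPMS, 867 to 966 in RBFOX2 and 1467 to 1557 in QKI knockdown libraries, and each was above 1 CPM in at least 1 library. The 5 endothelial markers, 2 of them below 1 CPM everywhere, summed to 8.73 to 10.8 CPM in control, 8.84 to 9.12 in RBPMS, 5.18 to 5.76 in RBFOX2 and 6.46 to 6.75 in QKI knockdown libraries. The 4 macrophage and blood markers, 2 of them below 1 CPM everywhere, summed to 1.42 to 1.56 CPM in control, 1.99 to 2.46 in RBPMS, 1.80 to 2.39 in RBFOX2 and 5.46 to 5.92 in QKI knockdown libraries. The 5 striated muscle markers, 4 of them below 1 CPM everywhere, summed to 1.72 to 3.42 CPM over all libraries. The 4 epithelial markers, 3 of them below 1 CPM everywhere, summed to 29.5 to 31.7 CPM in control, 36.3 to 44.2 in RBPMS, 72.0 to 73.9 in RBFOX2 and 32.3 to 34.2 in QKI knockdown libraries. The smooth muscle marker sum was lower than control in every knockdown library and lowest in the RBFOX2 knockdown. The members' share, which is a percent of raw counts and not a CPM sum, was lowest in the QKI knockdown. A sum does not show the direction of each marker. The part of these marker differences in the member values was not tested. In bulk RNA, fewer cells of a type and less RNA per cell cannot be told apart.

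Of the 38 members, 31 differed from control in the RBPMS knockdown at an edgeR adjusted p under 0.05, with 12 higher and 19 lower. Over all tested genes, 30.4% were called higher and 29.0% lower. Without the second RBPMS library 33 members differed, 14 of them higher. In the RBFOX2 knockdown 32 members differed, 11 higher and 21 lower, against 30.1% of all genes higher and 30.1% lower. In the QKI knockdown 34 members differed, 10 higher and 24 lower, against 32.9% higher and 34.0% lower. The members' median log2 fold changes were -0.07, -0.21 and -0.21, beside 0.01, 0.01 and 0.01 over all tested genes. Most member differences were small: the median absolute log2 fold change was 0.25, 0.32 and 0.38, beside 0.33, 0.33 and 0.42 for all genes. The median member had 23456 counts per library.

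With a log2 fold change beyond 1 as a further condition, 1 member was higher and 3 were lower in the RBPMS knockdown, where 5.16% of all genes were higher and 4.50% lower. Flnc rose, and Fhl1, Nexn and Lims2 fell. In the RBFOX2 knockdown 1 was higher (Flnc) and 4 were lower (Fhl1, Nexn, Lims2 and Pdlim7), beside 6.96% and 4.73% of all genes. In the QKI knockdown 1 was higher (Fhl3) and 9 were lower (Palld, Fhl1, Actn4, Pdlim5, Nexn, Lims2, Lims1, Vcl and Itgb5), beside 8.28% and 9.24% of all genes. These 12 different genes are given per library below. The 3 comparisons share the control libraries. When the fold change itself was tested against a log2 change of 1 (edgeR glmTreat), 3, 5 and 7 members passed, beside 3.27%, 4.44% and 9.24% of all genes. Flnc in the RBPMS knockdown and Itgb5, Vcl and Lims2 in the QKI knockdown did not pass that test.

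**Figure D1:**
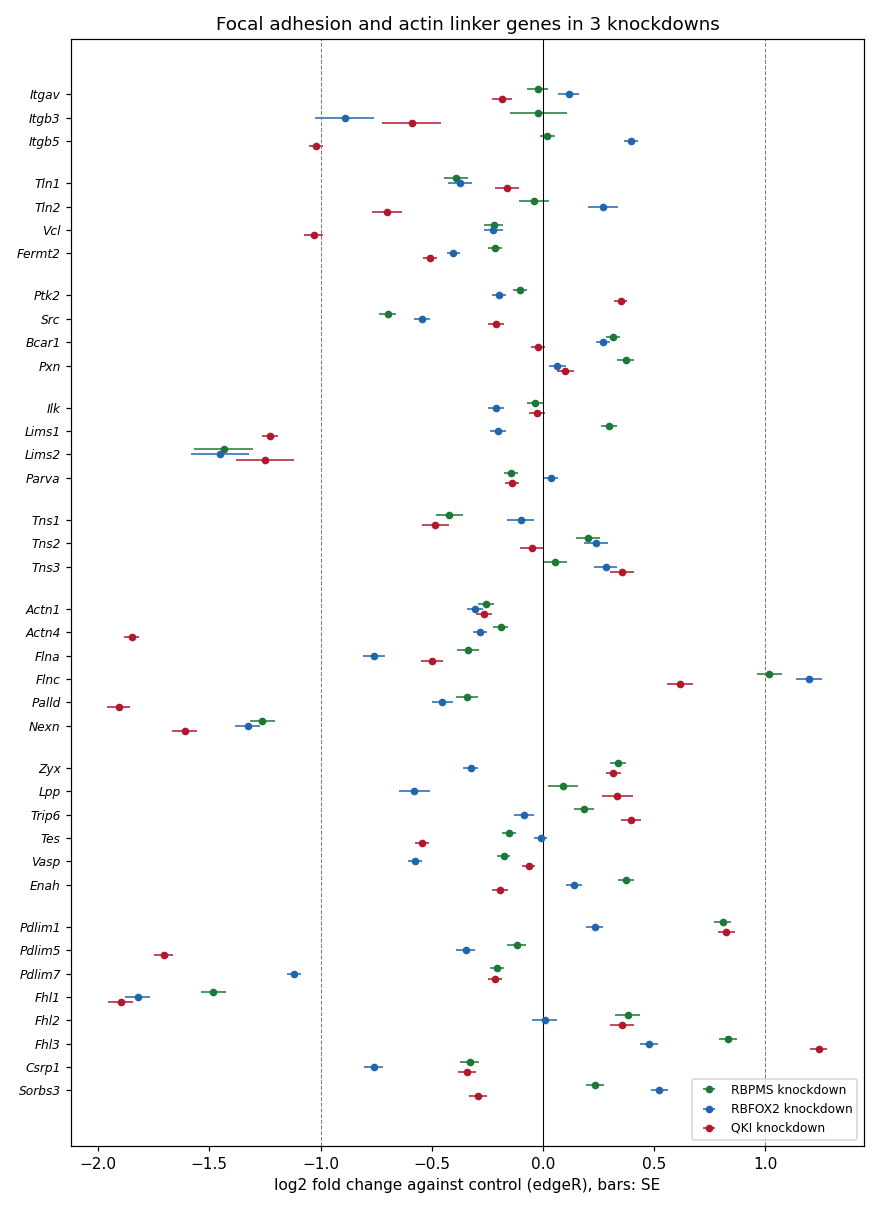
The log2 fold change against control of each of the 38 members (horizontal axis) with its SE, for the RBPMS, RBFOX2 and QKI knockdowns, grouped by role from integrins at the top to PDZ-LIM, FHL, CRP and vinexin genes at the bottom, with dashed lines at -1 and 1. Most points lie between the dashed lines. Fhl1, Nexn and Lims2 lie left of -1 in each knockdown, and Actn4, Palld and Pdlim5 only in the QKI knockdown.

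Of the 3 integrin subunits among the members, Itgb5, the beta subunit that pairs with alpha V to bind vitronectin, differed most in the QKI knockdown. Itgb5 stood at 796, 811 and 838 CPM in the control libraries, 801, 847 and 830.4 CPM in the RBPMS knockdown, 1070.2, 1076 and 1069.6 CPM in the RBFOX2 knockdown and 398, 395 and 412 CPM in the QKI knockdown. The QKI libraries lay below and the RBFOX2 libraries above every control library, and the RBPMS libraries overlapped control. The log2 fold changes were -1.02 ± 0.03 (SE) in the QKI and 0.40 ± 0.03 in the RBFOX2 knockdown (edgeR adjusted p = 2.5e-14 and 1.1e-08), and 0.02 ± 0.03 in the RBPMS knockdown (adjusted p = 0.62). Itgb3, the other beta partner of alpha V here, had low counts, at 2.55 ± 0.305 CPM in control, 2.52 ± 0.157 in RBPMS, 1.38 ± 0.124 in RBFOX2 and 1.69 ± 0.282 in QKI knockdown cells. It fell in the RBFOX2 (-0.89 ± 0.13) and QKI (-0.59 ± 0.13) knockdowns. Itgav, the alpha V subunit, was at 286 ± 8.10 CPM in control, 281 ± 23.6 in RBPMS, 309 ± 0.830 in RBFOX2 and 252 ± 3.39 in QKI knockdown cells, with log2 fold changes of -0.02, 0.12 and -0.18. The RBFOX2 value passed narrowly (adjusted p = 0.04) and was lost in 8 of the 12 fits that each left out 1 library: the first or second control, any RBFOX2 or any QKI knockdown library.

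Among the proteins that couple integrins to actin, Vcl (vinculin, which binds talin and actin under tension) differed most in the QKI knockdown. Vcl stood at 921, 949.8 and 1008 CPM in the control libraries, 864, 770.0 and 834 CPM in the RBPMS knockdown, 819.9, 833 and 813 CPM in the RBFOX2 knockdown and 459.9, 473 and 475 CPM in the QKI knockdown. All knockdown libraries were below the control libraries, and those of the QKI knockdown were lowest. The log2 fold changes were -0.22 ± 0.04, -0.22 ± 0.04 and -1.03 ± 0.04 (SE) in the RBPMS, RBFOX2 and QKI knockdowns. Tln1, the widely expressed talin, fell by 0.39, 0.37 and 0.16 on the log2 scale, but the QKI value was lost without the third control library (adjusted p = 0.0643) and was 0.07 on the authors' normalised values. Tln2, the second talin gene, was at 116 ± 6.77 CPM in control, 113 ± 14.6 in RBPMS, 140.0 ± 2.39 in RBFOX2 and 71.4 ± 1.93 in QKI knockdown cells, so it rose in the RBFOX2 knockdown (0.27 ± 0.07) and fell in the QKI knockdown (-0.70 ± 0.07). Fermt2 (kindlin-2, an integrin activator) fell in all of them, with -0.21, -0.40 and -0.51.

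The kinases and scaffolds changed by less than a log2 fold change of 1. Src, the tyrosine kinase that works with FAK, fell from 79.9 ± 2.14 CPM to 49.3 ± 1.62 in the RBPMS, 54.8 ± 1.13 in the RBFOX2 and 69.0 ± 1.65 in the QKI knockdown, which is -0.70 ± 0.04, -0.54 ± 0.04 and -0.21 ± 0.04 on the log2 scale. Ptk2, which encodes FAK, was lower in the RBPMS (-0.10 ± 0.03) and RBFOX2 (-0.20 ± 0.03) knockdowns and higher in the QKI knockdown (0.35 ± 0.03). Bcar1 (p130Cas, a scaffold phosphorylated by Src) rose in the RBPMS (0.31 ± 0.03) and RBFOX2 (0.27 ± 0.03) knockdowns and was at -0.02 ± 0.03 in the QKI knockdown, which did not pass. Pxn (paxillin, a scaffold for FAK and vinculin) rose in the RBPMS (0.37 ± 0.04) and QKI (0.10 ± 0.04) knockdowns. The QKI value of Pxn was lost without the first control library or without any 1 QKI library.

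The ILK, PINCH and parvin proteins form a complex that joins integrin tails to actin, and its PINCH genes, Lims1 and Lims2, differed most. Lims1 stood at 129, 131 and 130.2 CPM in the control libraries, 163, 152 and 164 CPM in the RBPMS knockdown, 113, 116 and 109.9 CPM in the RBFOX2 knockdown and 55.4, 55.6 and 55.7 CPM in the QKI knockdown. The QKI libraries lay within 55.4 to 55.7 CPM, the lowest of the groups, and the RBPMS libraries lay above the control libraries. Its log2 fold changes were 0.30 ± 0.04, -0.20 ± 0.04 and -1.23 ± 0.04 (SE). Lims2 stood at 4.24, 3.95 and 3.66 CPM in the control libraries, 1.35, 1.49 and 1.53 CPM in the RBPMS knockdown, 1.70, 1.46 and 1.17 CPM in the RBFOX2 knockdown and 1.84, 1.42 and 1.70 CPM in the QKI knockdown. No knockdown library of Lims2 reached the lowest control library, and the knockdown groups overlapped each other. Its log2 fold changes were -1.43 ± 0.13, -1.45 ± 0.13 and -1.25 ± 0.13, and it had the lowest single count of any member, 144 in 1 library. Ilk, the pseudokinase at the centre of the complex, fell in the RBFOX2 knockdown (-0.21 ± 0.04). Its RBPMS value, -0.03 ± 0.04, did not pass, but passed at -0.12 on the authors' normalised values and at -0.08 without the second RBPMS library (adjusted p = 0.0060 and 0.012). Parva (alpha-parvin, which binds actin) fell in the RBPMS (-0.14 ± 0.03) and QKI (-0.14 ± 0.03) knockdowns. Of the tensins, which bind integrin tails and actin, Tns1 fell in the RBPMS (-0.42 ± 0.06) and QKI (-0.48 ± 0.06) knockdowns, Tns2 rose in the RBPMS (0.20 ± 0.05) and RBFOX2 (0.24 ± 0.05) knockdowns, and Tns3 rose in the RBFOX2 (0.28 ± 0.05) and QKI (0.36 ± 0.05) knockdowns.

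Among the actin cross-linkers and filament-associated proteins, Palld and Actn4 differed most in the QKI knockdown. Palld stood at 167, 174 and 178 CPM in the control libraries, 144, 126 and 139 CPM in the RBPMS knockdown, 127, 128 and 124 CPM in the RBFOX2 knockdown and 44.6, 44.5 and 49.1 CPM in the QKI knockdown. Palld encodes palladin, which bundles actin and binds alpha-actinin. Its QKI libraries lay far below all others, at a log2 fold change of -1.91 ± 0.05, beside -0.34 ± 0.05 and -0.45 ± 0.05 in the RBPMS and RBFOX2 knockdowns. Actn4 stood at 1317, 1392 and 1374 CPM in the control libraries, 1203, 1159 and 1215 CPM in the RBPMS knockdown, 1118, 1128 and 1112 CPM in the RBFOX2 knockdown and 374, 372 and 387 CPM in the QKI knockdown. Actn4 is a non-muscle alpha-actinin, and the same pattern held, with -1.85 ± 0.03 in the QKI knockdown and -0.19 ± 0.03 and -0.28 ± 0.03 in the others (edgeR adjusted p = 2.1e-17, 6.3e-05 and 7.2e-07). Actn1, its close paralogue, fell by 0.26, 0.31 and 0.26 on the log2 scale.

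Nexn stood at 47.0, 41.4 and 46.1 CPM in the control libraries, 17.2, 19.4 and 19.3 CPM in the RBPMS knockdown, 18.0, 17.7 and 17.8 CPM in the RBFOX2 knockdown and 14.9, 14.2 and 14.9 CPM in the QKI knockdown. Nexn (nexilin, an F-actin binding protein of muscle and of cell-matrix contacts) was lower in every knockdown library than in any control library. Its log2 fold changes were -1.26 ± 0.05, -1.33 ± 0.05 and -1.61 ± 0.06. Flnc stood at 410.5, 432 and 436 CPM in the control libraries, 934, 753 and 901 CPM in the RBPMS knockdown, 979, 964 and 987 CPM in the RBFOX2 knockdown and 651, 666 and 643 CPM in the QKI knockdown. Flnc (filamin C, the muscle-enriched filamin) was higher in every knockdown library than in control, and the second RBPMS library was the lowest of its group. Its log2 fold changes were 1.02 ± 0.06, 1.20 ± 0.06 and 0.62 ± 0.06. Without that library the RBPMS value was 1.11, and it was 0.99, 0.96 and 0.99 without the first control, the first RBPMS or the third RBPMS library. Flna (filamin A, the widely expressed filamin) went the other way, from 4486 ± 208 CPM in control to 3555 ± 308, 2646 ± 49.6 and 3174 ± 38.3 CPM, which is -0.34, -0.76 and -0.50 on the log2 scale.

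**Figure D2:**
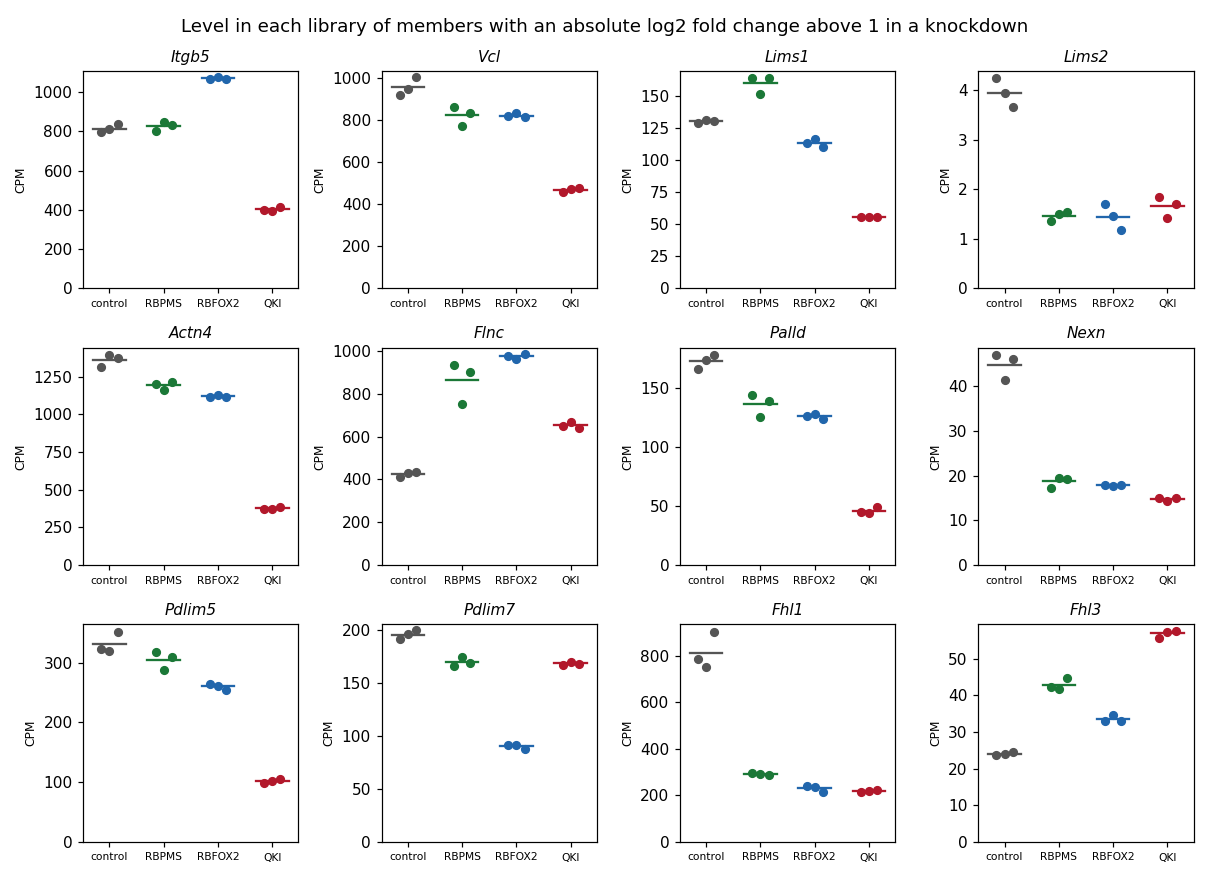
CPM in each of the 12 libraries (points) and the group mean (line) for the 12 members with an absolute log2 fold change above 1 in at least 1 knockdown; each vertical axis starts at 0. The QKI libraries are lowest for Palld, Actn4, Pdlim5, Lims1, Vcl and Itgb5, the RBFOX2 libraries are lowest for Pdlim7, and all knockdown libraries lie below control for Fhl1, Nexn and Lims2.

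The zyxin family and the Ena/VASP proteins, which promote actin assembly at adhesions, stayed within a log2 fold change of 0.6. Zyx (zyxin, a tension-sensitive LIM protein) was at 283 ± 5.66 CPM in control, 357 ± 10.4 in RBPMS, 225 ± 5.27 in RBFOX2 and 352 ± 9.36 in QKI knockdown cells, so it rose in the RBPMS (0.34 ± 0.03) and QKI (0.32 ± 0.03) knockdowns and fell in the RBFOX2 knockdown (-0.33 ± 0.03). Lpp, a zyxin relative abundant in smooth muscle, fell in the RBFOX2 knockdown (-0.58 ± 0.07) and rose in the QKI knockdown (0.33 ± 0.07). Its RBPMS value was 0.09 ± 0.07, which did not pass, and it passed at 0.19 without the second RBPMS library (adjusted p = 8.0e-04). Trip6, another zyxin relative, rose in the RBPMS (0.19 ± 0.04) and QKI (0.40 ± 0.04) knockdowns, and Tes (testin, which binds zyxin) fell in them (-0.15 ± 0.03 and -0.54 ± 0.03). Vasp fell in the RBPMS (-0.18 ± 0.03) and RBFOX2 (-0.58 ± 0.03) knockdowns. Enah (Mena) rose in the RBPMS (0.38 ± 0.04) and RBFOX2 (0.14 ± 0.04) knockdowns and fell in the QKI knockdown (-0.19 ± 0.04).

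The PDZ-LIM proteins bind alpha-actinin through the PDZ domain and other partners through the LIM domains. Pdlim5 stood at 323, 319 and 351 CPM in the control libraries, 319, 288 and 309 CPM in the RBPMS knockdown, 265, 262 and 254 CPM in the RBFOX2 knockdown and 99.1, 101 and 104 CPM in the QKI knockdown. The QKI libraries of Pdlim5 (Enigma homolog) lay below all others, at -1.71 ± 0.04 beside -0.35 ± 0.04 in the RBFOX2 knockdown. The RBPMS value, -0.12 ± 0.04, passed (adjusted p = 0.025) but not when the control and RBPMS libraries were fitted alone, nor without the third control or the second RBPMS library. Pdlim7 stood at 192, 196 and 200.02 CPM in the control libraries, 166, 175 and 169 CPM in the RBPMS knockdown, 91.3, 91.3 and 88.1 CPM in the RBFOX2 knockdown and 168, 169.9 and 169 CPM in the QKI knockdown. For Pdlim7 (Enigma) the RBFOX2 libraries were the lowest, at -1.12 ± 0.03, beside -0.21 ± 0.03 and -0.22 ± 0.03 in the RBPMS and QKI knockdowns. Pdlim1 (CLP36) rose from 126 ± 2.39 CPM to 220.3 ± 12.3, 148 ± 0.846 and 223 ± 5.13 CPM, which is 0.81 ± 0.04, 0.23 ± 0.04 and 0.82 ± 0.04.

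The FHL genes encode proteins built of LIM domains. Fhl1 stood at 784, 753 and 900.5 CPM in the control libraries, 295, 290.2 and 287 CPM in the RBPMS knockdown, 239, 235 and 215 CPM in the RBFOX2 knockdown and 212, 218 and 224 CPM in the QKI knockdown. Fhl1, the muscle-enriched member, was lower in all 9 knockdown libraries than in any control library, and the third control library was the highest. Its log2 fold changes were -1.48 ± 0.06, -1.82 ± 0.06 and -1.90 ± 0.06 (edgeR adjusted p = 6.3e-13, 3.1e-14 and 8.8e-15). Fhl3 stood at 23.8, 24.0 and 24.5 CPM in the control libraries, 42.2, 41.7 and 44.7 CPM in the RBPMS knockdown, 33.0, 34.7 and 32.9 CPM in the RBFOX2 knockdown and 55.7, 57.4 and 57.6 CPM in the QKI knockdown. Fhl3 was higher in each knockdown library than in control, in the order QKI, RBPMS and RBFOX2 with no overlap between groups, at 1.24 ± 0.04, 0.83 ± 0.04 and 0.48 ± 0.04. Fhl2, which shuttles between adhesions and the nucleus, rose in the RBPMS (0.38 ± 0.06) and QKI (0.36 ± 0.06) knockdowns and was at 0.01 ± 0.06 in the RBFOX2 knockdown, which did not pass. Csrp1, a cysteine-rich LIM protein that binds alpha-actinin and zyxin, fell by 0.33, 0.76 and 0.34 on the log2 scale. Sorbs3 (vinexin, which binds vinculin) rose in the RBPMS (0.23 ± 0.04) and RBFOX2 (0.52 ± 0.04) knockdowns and fell in the QKI knockdown (-0.29 ± 0.04).

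The knockdowns were then compared with each other, which uses no difference from control. Between the RBPMS and RBFOX2 knockdowns 30 members differed (20 higher and 10 lower in the RBPMS knockdown), where 56.7% of all genes differed in either direction. The largest member differences were Pdlim7 (0.91 ± 0.03, log2, SE), Itgb3 (0.87 ± 0.13), Lpp (0.67 ± 0.07), Zyx (0.66 ± 0.03) and Pdlim1 (0.58 ± 0.04), each higher in the RBPMS knockdown. Between the RBPMS and QKI knockdowns 28 members differed (20 higher and 8 lower in the RBPMS knockdown), beside 61.0% of all genes. Actn4 (1.66 ± 0.03), Pdlim5 (1.59 ± 0.04), Palld (1.57 ± 0.05), Lims1 (1.52 ± 0.04) and Itgb5 (1.04 ± 0.03) were higher in the RBPMS than in the QKI knockdown by more than 1 on the log2 scale. Itgb5 stood at 0.91 with library totals as the only scaling, 0.83 on the authors' normalised values and 0.996 with a minimum mean of 200 counts. Vcl (0.81 ± 0.04), Tln2 (0.66 ± 0.07), Itgb3 (0.57 ± 0.13), Enah (0.57 ± 0.04) and Sorbs3 (0.53 ± 0.04) were also higher there. No member was higher in the QKI knockdown by more than 0.5 in that comparison, and Src was nearest at -0.49 ± 0.04.

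Between the RBFOX2 and QKI knockdowns 32 members differed (18 higher and 14 lower in the RBFOX2 knockdown), beside 68.5% of all genes. Actn4 (1.57 ± 0.03), Palld (1.46 ± 0.05), Itgb5 (1.42 ± 0.03), Pdlim5 (1.36 ± 0.04) and Lims1 (1.02 ± 0.04) were again lower in the QKI knockdown, as were Tln2 (0.97 ± 0.07), Vcl (0.81 ± 0.04), Sorbs3 (0.81 ± 0.04), Flnc (0.58 ± 0.06) and Tes (0.53 ± 0.03). The Lims1 difference was 0.99 with library totals as the only scaling and 0.995 without the second RBFOX2 library. Lpp (-0.91 ± 0.07), Pdlim7 (-0.90 ± 0.03), Fhl3 (-0.76 ± 0.04), Zyx (-0.64 ± 0.03), Pdlim1 (-0.59 ± 0.04), Ptk2 (-0.55 ± 0.03) and Vasp (-0.51 ± 0.03) were lower in the RBFOX2 knockdown. Lims2 passed in none of these comparisons (adjusted p = 0.93, 0.27 and 0.21). Neither did Actn1 (adjusted p = 0.25, 0.86 and 0.31), whose log2 differences were 0.05 ± 0.04, 0.01 ± 0.04 and -0.04 ± 0.04. Fhl1 differed by 0.08 ± 0.05 between the RBFOX2 and QKI knockdowns (adjusted p = 0.23).

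**Figure D3:**
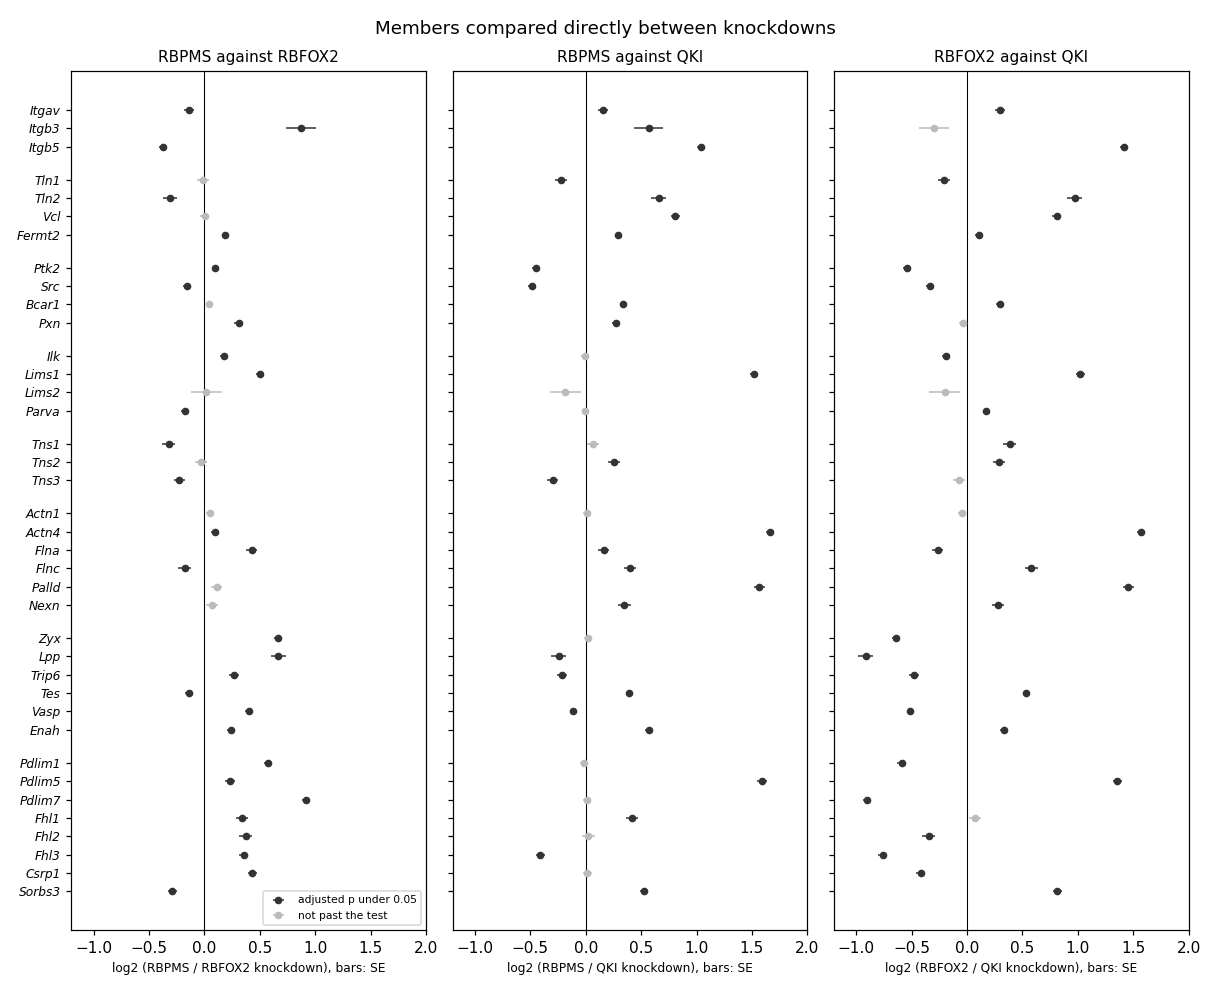
The log2 difference with its SE between 2 knockdowns for each of the 38 members, in 3 panels, with dark points past an adjusted p of 0.05 and grey points not. Actn4, Palld, Pdlim5, Lims1 and Itgb5 lie beyond 1 in both panels that involve the QKI knockdown, and Pdlim7 is lower in the RBFOX2 knockdown in both panels that involve it.

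Within families, members of like function moved by unequal amounts, shown by the ratio of their counts in each library, which needs no scaling. These pairs were chosen after the values were seen, and close paralogues can share reads, whose treatment in the counting is not given in the sources used here. The ratio of Flnc to Flna was 0.0950 ± 0.00190 in control (mean ± SD, n = 3), 0.242 ± 0.00731 in RBPMS, 0.369 ± 0.00961 in RBFOX2 and 0.206 ± 0.00345 in QKI knockdown libraries. No knockdown library overlapped control. The ratio of Actn4 to Actn1 was 1.75 ± 0.0402 in control, 1.84 ± 0.0431 in RBPMS, 1.78 ± 0.0183 in RBFOX2 and 0.584 ± 0.00681 in QKI knockdown libraries, so the QKI libraries lay far below control, the RBPMS libraries just above it, and the RBFOX2 libraries overlapped it. The ratio of Tln2 to Tln1 rose from 0.124 ± 0.00221 in control to 0.157 ± 0.00549 in the RBPMS and 0.193 ± 0.00401 in the RBFOX2 knockdown. It fell to 0.0852 ± 0.00174 in the QKI knockdown, and no knockdown range overlapped control.

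The ratio of Fhl3 to Fhl1 moved furthest of the 12 pairs, from 0.0298 ± 0.00239 in control to 0.147 ± 0.00691, 0.146 ± 0.00763 and 0.261 ± 0.00297 in the RBPMS, RBFOX2 and QKI knockdowns. For the PDZ-LIM genes, Pdlim1 against Pdlim5 rose from 0.380 ± 0.0148 in control to 0.725 ± 0.0790 in RBPMS, 0.568 ± 0.0104 in RBFOX2 and 2.20 ± 0.0992 in QKI knockdown libraries. None of these ranges overlapped control. Pdlim7 against Pdlim5 went from 0.593 ± 0.0230 to 1.66 ± 0.0414 in the QKI and to 0.347 ± 0.00227 in the RBFOX2 knockdown. In the RBPMS knockdown it was 0.559 ± 0.0445 and overlapped control. Lims2 against Lims1 was 0.0304 ± 0.00240 in control and 0.0298 ± 0.00394 in the QKI knockdown, where both genes fell and the ranges overlapped. It was 0.00915 ± 0.000799 in the RBPMS and 0.0127 ± 0.00219 in the RBFOX2 knockdown, and neither range overlapped control. With 3 libraries against 3, the smallest p of a two-sided exact permutation test is 0.1. Any ratio whose range does not overlap control reaches it, so the test adds nothing to the ranges.

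**Figure D4:**
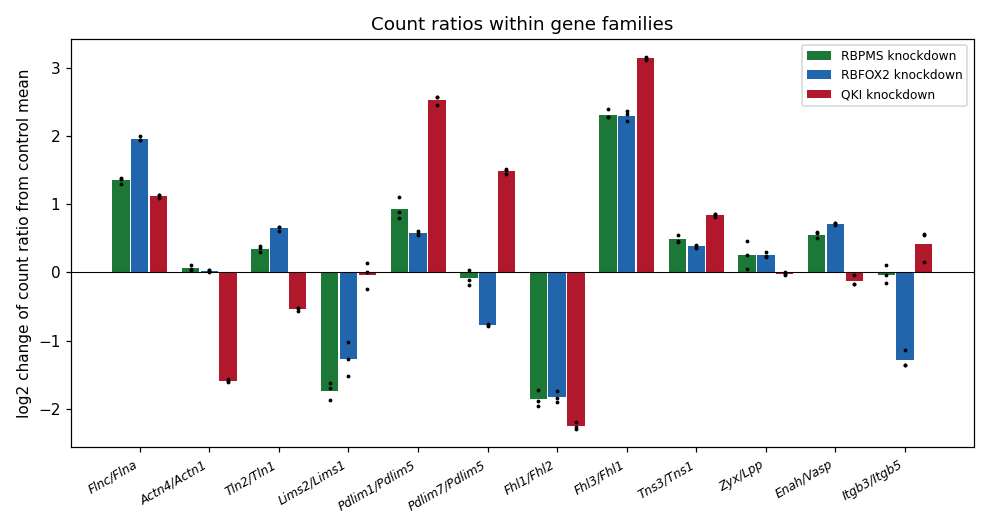
The log2 change of the count ratio of 12 gene pairs from the control mean, with bars for the mean of 3 knockdown libraries and dots for each library. The bars of Flnc/Flna, Pdlim1/Pdlim5, Fhl3/Fhl1 and Tns3/Tns1 are above 0 in each knockdown. Those of Fhl1/Fhl2 and Lims2/Lims1 are below 0, Lims2/Lims1 only just so in the QKI knockdown (-0.04). Actn4/Actn1 departs from 0 by more than 0.1 only in the QKI knockdown.

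A list of 88 other focal adhesion pathway genes was read alongside, of which 82 were tested. In the RBPMS knockdown 18 were higher and 30 lower, in the RBFOX2 knockdown 29 and 30, and in the QKI knockdown 19 and 51. Over all tested genes the shares were 30.4% and 29.0%, 30.1% and 30.1%, and 32.9% and 34.0%. The median log2 fold changes of the 82 were -0.06, 0.01 and -0.21. Itgb1, the beta 1 subunit shared by most matrix-binding integrins, stood apart in the RBFOX2 knockdown: it was at 2147 ± 28.3 CPM in control, 1708 ± 34.3 in RBPMS, 335 ± 6.99 in RBFOX2 and 1959 ± 13.1 in QKI knockdown cells, a log2 fold change of -2.68 ± 0.03 in the RBFOX2 knockdown beside -0.33 ± 0.03 and -0.13 ± 0.03 in the RBPMS and QKI knockdowns. Above a mean of 5 CPM, the pathway genes that changed most in the QKI knockdown were Itgb8 (-3.70 ± 0.10), Itga7 (-2.93 ± 0.04), the laminin-binding integrin alpha subunit of muscle, and Pak3 (-2.16 ± 0.09), a kinase downstream of Rac and Cdc42. In the RBPMS knockdown they were in Itgb8 (-1.86 ± 0.09), Itga9 (-1.19 ± 0.06) and Fblim1 (-1.15 ± 0.09), which encodes migfilin, a filamin-binding protein. In the RBFOX2 knockdown Itgb1 was followed by Itga9 (-1.37 ± 0.06) and Itga1 (1.07 ± 0.08), the collagen-binding alpha 1 subunit, which rose.

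Promoter windows from RefSeq (build GRCr8, 250 bases before to 50 after an annotated start) were found for 30 of the 38 members, 42 windows in all. A pair of motifs was searched on both strands: the CArG box (CC, 6 bases of A or T, GG), bound by serum response factor, and CATTCC, the core bound by TEAD factors, which also counts when read as GGAATG. The CArG box lay in 4 of the 42 windows, of 3 genes (Fhl1, Fhl2 and Trip6), and in 1.64% of all 33469 windows. CATTCC lay in 9 of the 42, of 9 genes, and in 14.2% of all. A match is a run of letters and not a binding site. The windows of Fhl1 and Nexn, which fell in each knockdown, and of Flnc, which rose in each, are printed 5′ to 3′ on the strand of the gene with the motif in capitals. Fhl1 has a second window without a match, at another start.
Fhl1 promoter, chrX:139638246-139638545, plus strand: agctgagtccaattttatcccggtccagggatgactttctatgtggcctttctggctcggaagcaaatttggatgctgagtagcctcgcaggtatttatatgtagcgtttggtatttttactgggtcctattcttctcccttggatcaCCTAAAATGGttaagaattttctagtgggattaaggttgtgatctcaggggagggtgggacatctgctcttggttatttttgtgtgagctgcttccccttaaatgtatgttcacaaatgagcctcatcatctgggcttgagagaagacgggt
Nexn promoter, chr2:243878103-243878402, minus strand: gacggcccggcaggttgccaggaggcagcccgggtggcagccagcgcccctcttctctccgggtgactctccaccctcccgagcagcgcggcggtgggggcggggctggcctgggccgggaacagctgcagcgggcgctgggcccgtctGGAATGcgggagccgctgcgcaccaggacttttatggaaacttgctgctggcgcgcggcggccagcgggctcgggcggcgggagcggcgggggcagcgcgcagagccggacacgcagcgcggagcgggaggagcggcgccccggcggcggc
Flnc promoter, chr4:58999297-58999596, plus strand: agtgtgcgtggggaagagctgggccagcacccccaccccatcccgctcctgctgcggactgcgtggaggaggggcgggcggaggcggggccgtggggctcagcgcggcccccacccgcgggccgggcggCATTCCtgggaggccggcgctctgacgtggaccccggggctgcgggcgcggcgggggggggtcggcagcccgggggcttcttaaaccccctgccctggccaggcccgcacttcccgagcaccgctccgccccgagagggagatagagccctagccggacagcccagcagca
The capitals mark a CArG box that begins 102 bases before the start in Fhl1, GGAATG 101 bases before it in Nexn and CATTCC 121 bases before it in Flnc. Fhl3 and Pdlim1, which also rose in each knockdown, had no match to either motif in their windows. Of the other members that fell in each, Vcl, Lims2, Palld and Flna had CATTCC in a window. Tln1, Src, Actn1, Pdlim5, Pdlim7 and Csrp1 had no match, and Fermt2 and Actn4 had no window. Fhl2 and Trip6, which hold a CArG box, were called lower in no knockdown. A link between motif and change was not tested.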

How the data were processed

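Poly(A) RNA from PAC1 cells was prepared with a directional kit and sequenced. The submitters' notes name STAR 2.5.2a, edgeR 3.28.1 and DESeq2 1.30.0 with build mRatBN7.2, without roles. The strand setting and the treatment of multimapping reads are not given in the sources used here. The authors deposited raw counts per gene (33294 genes), used for all main values, and a second table of normalised counts (unit: signal, 22320 genes), used as an alternative on log2(value + 1). Deposited counts from 1 to 19 were even in 68.1% of cases, beside 50.9% above 1000, so a halved table was run as an alternative. Totals differed between libraries, although the study's methods describe subsampling to a uniform depth.

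The members, roles and lists were chosen with earlier results of these data known. Genes were kept by filterByExpr (18438, holding 99.99% of counts) and scaled by TMM. All 12 libraries entered 1 edgeR 4.0.16 quasi-likelihood fit (R 4.3.3) with group as the only term. The 4 groups shared 1 spread per gene, so a group with a wider spread got no wider SE. Flnc had an SE of 0.06 in each knockdown, with an SD of 96.8 CPM in the RBPMS and 12.1 in the RBFOX2 libraries. Tests were two-sided, with Benjamini-Hochberg adjustment over all tested genes, and SE was the absolute log2 fold change divided by the square root of F. Calls used an adjusted p under 0.05, alone or with an absolute log2 fold change above 1. Levels are mean ± SD of 3 libraries. Exact permutation tests used scipy 1.17.1. The genes named were all members, the siRNA targets, Itgb1, and in each comparison the 3 other pathway genes with the largest absolute fold change past the test at a mean of at least 5 CPM. Members past a log2 fold change of 1 with a mean of at least 1 CPM are given per library. Direct differences are named above 0.5.

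Replicate libraries differed by more than sampling noise in every pair (chi-square per degree of freedom 4.64 to 57.8). A table of 18438 genes was simulated for the RBPMS comparison. In it 64, 65 and 71 genes were changed by 0.5, 1 and 2 on the log2 scale. These are few beside the 59.4% of genes called in the RBPMS knockdown, and the simulated spread of a gene was the same in every group. The test recovered 68.8%, 76.9% and 93.0% of the changed genes. Among genes with a mean of at least 200 counts, as every member has, it recovered 100% of each, out of 44, 46 and 48 genes. The 200-count cut was set after the recovery over all genes was seen. Changes below 0.5, where most member values lie, were not simulated. Alternatives were RLE factors, library totals, no filter, a minimum mean of 200 counts, fits of only 2 groups, a replicate block, DESeq2 1.42.0, limma 3.58.1, halved counts, glmTreat and leaving out each library.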

Additional observations from a re-analysis of the deposited data

How the results depend on the processing

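The counts of members past adjusted p stayed within 1.5 times the reported value under every alternative run: 29 to 32 in the RBPMS, 31 to 35 in the RBFOX2 and 31 to 35 in the QKI knockdown, and 31 to 33, 31 to 35 and 33 to 35 when 1 library was left out. Those past a log2 fold change of 1 numbered 3 to 4, 5 and 7 to 10. The log2 fold change of Flnc in the RBPMS knockdown was 0.97 with library totals and 0.91 on the normalised table. Those of Vcl and Itgb5 in the QKI knockdown were -0.95 and -0.93 with library totals, and -0.898 and -0.895 on the normalised table. With a minimum mean of 200 counts they were -0.997 and -0.986, and Vcl was -0.997 without the third control library. A replicate block gave 31, 32 and 34 members. Same-numbered libraries did not deviate together (correlations -0.05 to 0.04, 3 of 12 libraries correlated best with their own number). Such values cannot show whether same-numbered libraries were prepared together, and the labels do not say. Library totals shifted the median of all genes by -0.13 between the RBPMS and QKI knockdowns, and made 17 higher and 15 lower of 32 members there.

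Besides those named in the report, calls lost under some alternatives were Ptk2 in the RBPMS knockdown (2 groups fitted alone), Vcl in the RBFOX2 knockdown (normalised table), Itgav, Tln1, Parva and the target Rbfox2 in the QKI knockdown (library totals), Rbfox2 in the RBPMS knockdown (2 groups fitted alone), Pxn in the QKI knockdown (no filter), and Itgav in the RBFOX2 knockdown (RLE factors and DESeq2 too). Calls gained were Pxn, Parva, Tns1 and Trip6 in the RBFOX2 knockdown (in 5, 2, 3 and 2 settings), Tns3 in the RBPMS knockdown (without the third control or the second RBPMS library) and Vasp in the QKI knockdown (2 groups fitted alone, DESeq2, and without the second RBPMS library). The causes were not tested. Signs turned for values near 0. With library totals, the log2 fold change was -0.025 for Itgb5 (RBPMS), 0.044 for Tes (RBFOX2), and 0.062, 0.059, 0.036 and 0.021 for Bcar1, Ilk, Tns2 and Vasp (QKI). On the normalised table it was 0.072 for Itgb3 and -0.066 for Itgb5 (RBPMS), 0.049 for Tes (RBFOX2), and 0.075, 0.022, 0.011 and 0.0093 for Tln1, Bcar1, Ilk and Tns2 (QKI). With a minimum mean of 200 counts it was 0.012 for Tes (RBFOX2) and 0.011 and 0.0078 for Bcar1 and Ilk (QKI), and with no filter -0.0046 for Fhl2 (RBFOX2). Leaving out 1 library gave -0.066 to 0.042 for Itgav, -0.11 to 0.050 for Itgb3 and -0.12 to 0.060 for Tln2 (RBPMS), -0.032 to 0.00049 for Tes and -0.047 to 0.045 for Fhl2 (RBFOX2), and -0.085 to 0.0016 for Tns2 (QKI).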
